A study of Mus musculus with 4 samples.

Results

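The inner side of the granule cell layer of the dentate gyrus was compared between senile and young mice. The comparison covered 23777 of the 30125 genes on the array, those that the scanner software marked as well above background in young inner tissue, senile inner tissue or both. One array was made from wild-type C57Bl6J females aged 3 months (young) and one from females aged 20 to 24 months (senile). Each sample pooled the laser-captured inner layer of 8 mice. The outer side of the layer at both ages gave 2 further arrays, which were used here only for comparison. With 1 array per group there was no replicate, so the differences carry no p-value and no error between animals.

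Granule neurons are the principal neurons of the dentate gyrus, and in rodents new ones are added throughout life. Radial glia-like stem cells sit at the inner edge of the layer, the subgranular zone. They give rise to dividing progenitors, which become neuroblasts that extend processes and then mature into granule neurons. Genes of each of these stages mark the process, which is known to decline with age.

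Signals are given as log2 processed intensity relative to the 75th percentile of the same array, which was 435 on the young inner and 386 on the senile inner array. A difference is senile minus young on that log2 scale, so -1 is 2-fold lower in senile mice. The 2 inner arrays had 76.2% and 75.6% of their spots well above background, the outer arrays 75.7% and 77.5%, and saturation was seen on 0 spots. Spots printed repeatedly for a probe gave an SD of 0.099 for the inner difference, which covers printing and scanning alone, and different probes of 1 gene differed by a median SD of 0.289. In pooled tissue, fewer cells of a type and less RNA per cell cannot be told apart.

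Markers of mature granule neurons were present on all 4 arrays. Of 22 such genes, 21 were well above background on each array. Prox1, the transcription factor that sets granule neuron identity, had log2 signals of 2.40 on the young inner, 1.53 on the senile inner, 2.41 on the young outer and 1.95 on the senile outer array. Of 30 genes listed for another brain region, the striatum, and measured in both layers, 22 were highest on the young inner array. The summed linear signal of 34 striatal projection neuron genes was 172 there and between 69.2 and 85.6 on the other arrays. The young inner array is one side of each inner age difference, so the striatal values are given below.

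Short stretches of the probes that carry the main differences are shown so that the transcript measured can be recognised. Each line gives the first 30 of the 60 bases of the probe, in lower case throughout. Dcx, Cd24a, Eomes and Mki67 stand for immature neurons, neuroblasts, progenitors and dividing cells, Ppp1r1b for striatal neurons, and C1ql2 for mature granule neurons.
Dcx: aactcaacatgaattgatgacaacttggtg
Cd24a: cttggttctaccgtaagtttttccaatttc
Eomes: gctatgaagaacgagtgcccggtgctatta
Mki67: cagtgaacctaagccaagggtaactcgtgg
Ppp1r1b: aatgcacttactatctgtccttagggggcc
C1ql2: cccactacaggcaagttcagctgccaggtg
Per the file headers, which use build mm9, the Dcx probe covers chrX:140296337-140296396 on the minus strand and the Mki67 probe chr7:142884764-142884823, also minus. The Cd24a probe lies at chr10:43303706-43303765 and the Eomes probe at chr9:118394425-118394484, both on the plus strand. The Ppp1r1b probe lies at chr11:98218965-98219024 and the C1ql2 probe at chr1:122238262-122238321, both plus. Exons and untranslated regions were not assigned, since no mm9 annotation was used here.

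Compared with young inner tissue, 1181 genes were higher in senile inner tissue by 2-fold or more and 1607 were lower by as much, and 20989 lay under 2-fold. These shares, 4.97% higher and 6.76% lower, are the background for each gene group below. The groups were chosen with earlier results of these data known and were not matched for brightness, so the comparison is descriptive. The outer pair shares no array with the inner pair. In it 1466 of 24065 genes were higher by 2-fold or more (6.09%) and 1211 lower (5.03%). Most of these genes were dim. In the dimmest tertile of genes 700 were higher and 888 lower, and in the brightest tertile 61 were higher (0.77%) and 116 lower (1.46%). The background correction changed the balance. With normexp correction, which draws low signals together, 95 genes were higher and 674 lower, and the median of all genes moved from 0.03 to -0.26. After that median was subtracted, a step added after the data were seen, 357 were higher and 267 lower. Values given below with normexp correction are not centred unless this is stated. At least 2-fold under both background settings were 92 higher and 674 lower genes. The plot of difference against signal shows the spread widening toward dim genes.

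**Figure D1:**
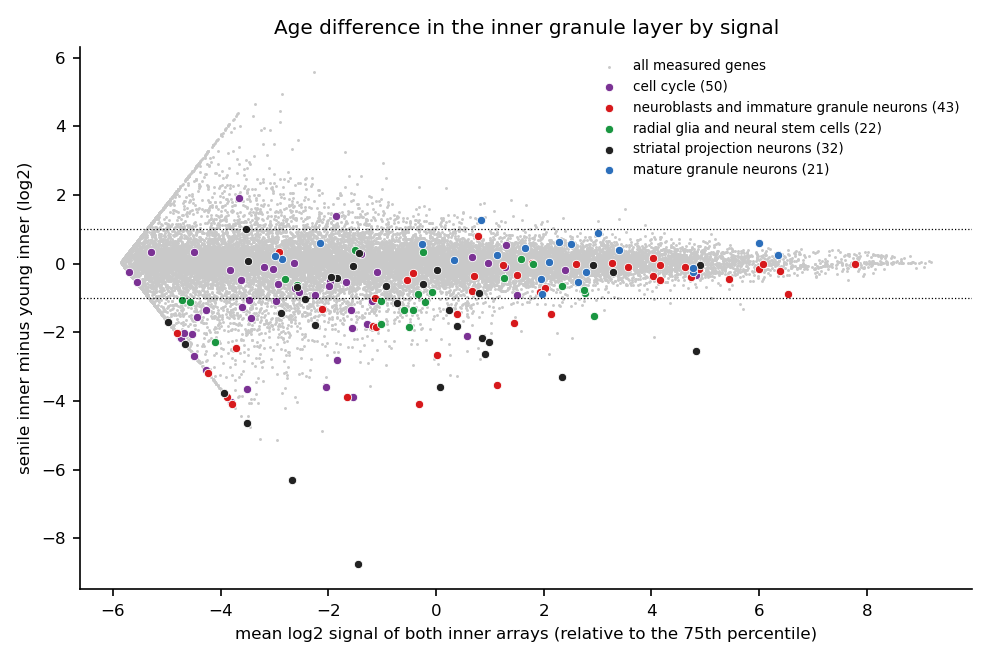
Senile inner minus young inner log2 difference (vertical axis) against the mean log2 signal of both inner arrays relative to the 75th percentile (horizontal axis), for the 23777 measured genes in grey and the members of 5 gene lists in colour. Dotted lines mark 2-fold, signals below background are set to the lowest signal above it, and mature granule neuron genes lie near 0 while many coloured genes of the other lists lie below -1.

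The 3 lists of neurogenesis genes were lower in senile inner tissue. Together they hold 115 different measured genes, of which 48 (41.7%) were at least 2-fold lower and 2 at least 2-fold higher. By stage, 10 of 22 radial glia and stem cell genes, 22 of 50 cell cycle genes and 16 of 43 neuroblast and immature neuron genes were lower. With normexp correction the counts were 6, 11 and 14. The young inner array was the highest of the 4 arrays for 72.7% of the radial glia and stem cell genes measured in both layers, beside 22.7% of all genes. The senile inner array was the lowest for 31.8% of them, beside 23.5% of all genes. A high share with young inner as the highest array was not particular to neurogenesis lists. It was 73.3% for striatal, 66.7% for mossy cell, 60.6% for interneuron and 51.9% for astrocyte genes, and 0.0% for mature granule neuron genes.

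Radial glia and stem cell genes had a median difference of -0.86, beside 0.03 for all genes, and 0 of the 22 were 2-fold higher. Hes5, an effector of Notch signalling that keeps stem cells undifferentiated, was the brightest of those 2-fold lower. Its log2 signal was 3.69 on the young inner, 2.18 on the senile inner, 2.05 on the young outer and 1.46 on the senile outer array, a 2.85-fold difference between the inner arrays. The young inner value stood above all others, and the senile inner value lay close to the outer ones. Vim, an intermediate filament gene of radial glia, went from 0.43 in young inner to -1.43 in senile inner tissue, with -0.75 and -1.07 in young and senile outer tissue. Sox9, a transcription factor of radial glia and astrocytes, had 0.24 and -1.10 inside and -0.47 and -1.29 outside.

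Pax6, a transcription factor of radial glia and early progenitors, was dim, with -2.96 in young inner and -5.25 in senile inner tissue. On the outer arrays it stood at -5.96, which was not well above background, and -5.40. Its difference of -2.29 shrank to -1.06 with normexp correction. Sox2, which maintains neural stem cells, was lower by 1.09 and Nes, the intermediate filament nestin, by 1.11. Prom1, the surface protein prominin 1, was lower by 1.13. With normexp correction these 3 genes were under 2-fold.

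Other members of the stem cell list differed less. Hopx, a marker of quiescent radial glia, differed by -0.43 and Thrsp by -0.01. The brightest probe of Gfap, the filament gene of radial glia and astrocytes, differed by 0.13, while its other probes above background gave -1.85 and -1.58, so Gfap has no settled direction here. For Sox1, another stem cell factor, the probe used gave -1.75 and a second one 0.43. Of the 10 lower genes, 10 were under 2-fold between the outer arrays.

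Astrocytes share part of this programme, and their genes were also lower, with 5 of 27 at least 2-fold lower, 0 higher and a median of -0.53. Aldh1a1, a retinoic acid synthesising enzyme, was lower by 1.21 and Aqp4, the water channel of astrocyte endfeet, by 1.05. A second probe of Aqp4 gave -0.57. Slc1a3 and Fabp7, shared by radial glia and astrocytes, differed by -0.78 and -0.85.

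Cell cycle genes had a median difference of -0.76, and the genes of G2 and mitosis carried most of it. Of 28 measured G2 and mitosis genes, 16 (57.1%) were at least 2-fold lower, 0 were higher and the median was -1.18. Of 22 genes of G1 and S phase, 6 were lower and 2 higher, with a median of -0.30. Mki67, the standard marker of dividing cells, had log2 signals of 0.40 in young inner, -3.48 in senile inner, -2.52 in young outer and -3.83 in senile outer tissue. It stood highest in young inner tissue and was 14.8-fold lower in senile inner tissue. A second Mki67 probe gave a difference of -3.04.

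Birc5, survivin of the chromosomal passenger complex, had 1.64 on the young inner, -0.48 on the senile inner, -2.53 on the young outer and -1.02 on the senile outer array. It was 4.34-fold lower in senile inner and 2.85-fold higher in senile outer tissue, and its other probes gave -1.44 and -0.78 inside. Cdca8, borealin of the same complex, had -0.62, -2.48, -0.88 and -2.69 in the same order, so that it was lower with age in both layers. Its second probe gave -1.82.

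Spc25 and Ndc80, subunits of the kinetochore complex that binds microtubules, were lower by 3.59 and 3.66. Spc25 stood at -0.25 in young inner tissue and between -3.84 and -2.58 on the other arrays. Bub1, a spindle checkpoint kinase, passed the background flag on the young inner array alone, with -1.80, and was at least 16.3-fold lower in senile inner tissue. Aurka, the kinase Aurora A of the spindle poles, was lower by 1.36 inside and higher by 1.40 outside. Cdk1, the kinase that drives mitosis, differed by -0.15, Ccna2 by -0.48 and Hmmr by 0.01. Top2a, another common marker of dividing cells, was not well above background on either inner array.

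Among S phase genes, Rrm2, a subunit of ribonucleotide reductase, was lower by 2.80 and Mcm3, of the replicative helicase, by 1.76, with a second Mcm3 probe at -2.02. Cdc6, which loads that helicase, was well above background in young inner but not senile inner tissue and was at least 8.57-fold lower. Other genes of the same machinery did not differ by 2-fold, among them Mcm6 with -0.34, Pcna with -0.19 and Mcm4 with 0.55. Tyms, which makes thymidylate, was higher by 1.91, and by 0.16 with normexp correction. Of the 22 lower cell cycle genes, 5 were also 2-fold lower in the outer pair, 4 were 2-fold higher there, 11 were under 2-fold and 2 were not measured there.

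Genes of G2 and mitosis are known to share promoter elements, the cell cycle genes homology region (CHR) and CCAAT boxes, bound by the MuvB complexes and NF-Y. The promoters of all 7 G2 and mitosis genes that were 2-fold lower with both background corrections are shown from 150 bases before to 30 after the RefSeq start, on build GRCm38.p6. Capitals mark each CHR (TTTGAA or TTCGAA) and each CCAAT on either strand, so that ATTGG is CCAAT on the opposite strand.
Bub1: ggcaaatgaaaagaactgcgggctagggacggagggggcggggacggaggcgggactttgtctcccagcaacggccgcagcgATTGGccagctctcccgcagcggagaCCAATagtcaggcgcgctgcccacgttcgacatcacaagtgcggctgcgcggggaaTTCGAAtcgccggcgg
Mki67: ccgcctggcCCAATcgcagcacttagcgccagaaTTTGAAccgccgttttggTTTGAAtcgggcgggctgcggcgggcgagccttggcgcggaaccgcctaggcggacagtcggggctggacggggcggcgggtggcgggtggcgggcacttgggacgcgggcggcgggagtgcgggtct
Spc25: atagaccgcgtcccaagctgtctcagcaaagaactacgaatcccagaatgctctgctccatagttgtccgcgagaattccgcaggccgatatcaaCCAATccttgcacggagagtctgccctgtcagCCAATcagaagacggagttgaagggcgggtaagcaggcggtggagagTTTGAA
Cdca8: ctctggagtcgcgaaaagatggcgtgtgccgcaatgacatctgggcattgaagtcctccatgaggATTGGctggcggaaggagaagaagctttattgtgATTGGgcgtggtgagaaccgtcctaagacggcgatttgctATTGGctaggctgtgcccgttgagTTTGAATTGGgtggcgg
Ndc80: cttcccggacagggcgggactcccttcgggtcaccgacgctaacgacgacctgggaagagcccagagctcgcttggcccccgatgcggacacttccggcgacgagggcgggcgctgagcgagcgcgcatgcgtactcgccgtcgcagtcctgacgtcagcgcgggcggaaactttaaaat
Birc5: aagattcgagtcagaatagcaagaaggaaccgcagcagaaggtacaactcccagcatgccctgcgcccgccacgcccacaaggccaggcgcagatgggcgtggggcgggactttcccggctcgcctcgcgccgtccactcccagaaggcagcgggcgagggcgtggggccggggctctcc
Aurka: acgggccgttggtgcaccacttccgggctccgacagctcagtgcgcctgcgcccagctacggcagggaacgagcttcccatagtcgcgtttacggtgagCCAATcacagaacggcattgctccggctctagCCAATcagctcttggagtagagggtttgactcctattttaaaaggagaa
They lie at chr2:127831830-127832009 for Bub1, chr7:135716350-135716529 for Mki67, chr2:69206184-69206363 for Spc25, chr4:124936888-124937067 for Cdca8, chr17:71526828-71527007 for Ndc80 and chr2:172370541-172370720 for Aurka, on the minus strand. The Birc5 promoter lies at chr11:117849087-117849266 on the plus strand. Bub1, Mki67, Spc25 and Cdca8 hold at least 1 CHR and 1 CCAAT in this window, and in Cdca8 a CHR and a CCAAT overlap. In the same window Aurka holds 2 CCAAT and 0 CHR, and Ndc80 and Birc5 hold 0 of either. In the longer window of 300 bases used for the shares below, Aurka and Ndc80 do hold a CHR, while Birc5 holds neither motif.

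The motifs were searched in windows of 300 bases, from 250 before to 50 after the start, on both strands. A CHR was found in 85.7% of the 14 lower G2 and mitosis genes with a promoter sequence, in 81.5% of all 27 such genes of the list and in 21.7% of 27025 genes. CCAAT was found in 85.7%, 85.2% and 41.1% of them. For G1 and S phase genes the shares were 11.8% for CHR and 52.9% for CCAAT, over 17 genes. The match is one of letters only, and these shares were not tested.

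Neuroblast and immature neuron genes had a median difference of -0.48, and -0.10 when centred after normexp correction. The list was uneven. Of its 28 members in the brightest tertile of genes, 4 were at least 2-fold lower and 19 lay within 0.5 of 0, and 27 of all 43 were under 2-fold. Insm1, a transcription factor of neuronal progenitors, differed by 0.33, and by -0.24 with normexp correction. Dcx, the microtubule protein doublecortin of migrating neuroblasts, had log2 signals of 2.90 in young inner, -0.64 in senile inner, 1.46 in young outer and -0.75 in senile outer tissue. Both young arrays lay above both senile ones, by 11.7-fold inside and 4.62-fold outside. Its other probes gave inner differences of -3.85 and -3.85.

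Cd24a, a surface glycoprotein of neuroblasts, had 1.73 on the young inner, -2.36 on the senile inner, -0.18 on the young outer and -5.30 on the senile outer array. It was 17.1-fold lower inside, a value that remains uncertain because the gene has near-identical copies in the genome. Dpysl3, a collapsin response mediator of growing axons, was 14.7-fold lower inside and 4.36-fold lower outside, and a second probe gave -2.28 inside. Cxcr4, the receptor through which Cxcl12 guides migrating cells, was lower by 2.65 inside and 2.54 outside. Sema3c, a secreted guidance molecule, was lower by 1.45 and 2.76, and its second probe gave -1.75 inside.

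Among transcription factors, Sox11 and Sox4, which switch on immature neuron genes, were lower by 1.47 and 1.74. Sox11 had 2.86 in young inner and 1.40 in senile inner tissue, with 1.94 and 1.76 in young and senile outer tissue, and a second probe gave -1.32. Other Sox4 probes gave -1.09 and 0.26. Eomes, a factor of dividing neuronal progenitors, had -1.45 and -2.78 inside and -4.80 and -5.31 outside, and was 2.5-fold lower in senile inner tissue. Even there it stood above both outer arrays. Neurog2, which commits progenitors to neurons, was lower by 2.45 and Neurod1, which acts after it, by 0.81.

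Igfbpl1 and Draxin, secreted proteins of neuroblasts and growing axons, were well above background in young inner but not in senile inner tissue, at least 17.2-fold and 14.8-fold lower. Calb2, calretinin of young granule neurons and of mossy cells, was at least 4.1-fold lower in the same way. Other cytoskeletal genes of the list differed less, among them Tubb3 by -0.46, Stmn1 by -0.16, Dpysl5 by 0.00 and Gap43 by -0.83. Of the 16 lower genes, 9 were also 2-fold lower in the outer pair, 1 was 2-fold higher there, namely Mex3a, 4 were under 2-fold and 2 were not measured there. Mex3a, an RNA-binding protein gene, was lower by 1.83 inside and higher by 1.63 outside.

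**Figure D2:**
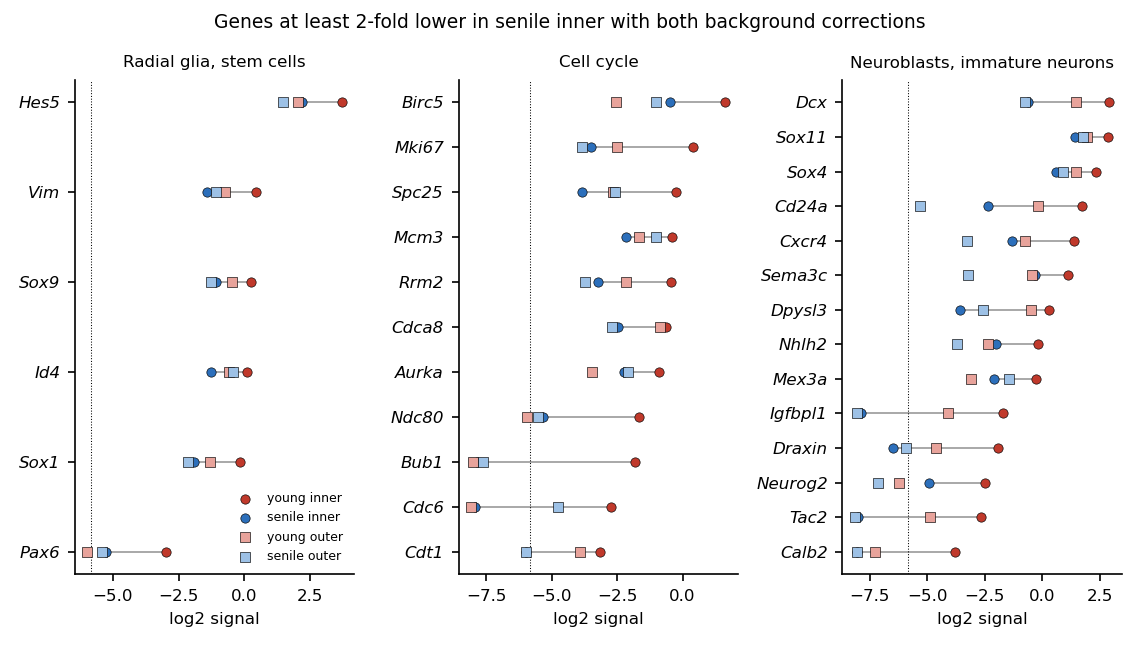
Log2 signal relative to the 75th percentile (horizontal axis) on each of the 4 arrays for the genes of the 3 neurogenesis lists that were at least 2-fold lower in senile inner tissue with both background corrections, 6, 11 and 14 genes. Each point is 1 array, grey lines join the inner arrays, the dotted line marks the lowest signal above background on the senile inner array, and the young inner array is the highest point for each gene shown.

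Mature granule neuron genes differed little and in the other direction on balance. Of 21 measured, 1 was at least 2-fold higher, 0 were lower and the median was 0.24, beside -0.28 in the outer pair. C1ql2, a synapse organiser released from mossy fibres, had 0.20 in young inner, 1.47 in senile inner, 0.57 in young outer and 0.25 in senile outer tissue, and was 2.42-fold higher in senile inner tissue. Calb1, the calcium buffer calbindin, differed by -0.54 and Prox1 by -0.87. Plk5, a polo-like kinase of neurons, differed by 0.89 inside and by 1.49 outside.

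The striatal projection neuron genes had the lowest median of the 44 lists, -1.25, with 18 of 32 at least 2-fold lower and 1 higher. Their summed signal was 172 on the young inner array and 69.2 on the senile inner, 73.9 on the young outer and 85.6 on the senile outer array. Of the 34 genes on the array, 32, 26, 30 and 27 were well above background in that order. Ppp1r1b, the dopamine-regulated phosphatase inhibitor DARPP-32, had 3.98 in young inner tissue and 0.68, 1.12 and 1.26 in senile inner, young outer and senile outer tissue. Penk, the enkephalin precursor, had 6.09 beside 3.55, 3.33 and 3.83, so much of the summed difference lies in this bright gene. Adora2a, an adenosine receptor, had 1.87 beside -1.73, -1.52 and -1.83.

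For these 3 genes the young inner array stood apart from the others. Meis2, a homeobox gene, was at least 79.8-fold lower in senile inner tissue. Drd2 and Drd1, the dopamine receptors of the indirect and direct pathway neurons, were lower by 2.18 and 1.78, and Drd1 stood as high on the outer arrays, at -1.48 and -0.97, as on the young inner one, at -1.36. Pdyn, which granule neurons also express, differed by -0.04, and Pde10a and Pde1b, phosphodiesterases rich in striatum, by -0.18 and -0.04. Ebf1 and Gpr149 were not well above background on either inner array.

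Radial glia and stem cell genes summed to 56.8 on the young inner array and to 32.8, 36.3 and 32.5 on the senile inner, young outer and senile outer arrays. Those of the cell cycle summed to 63.6, 46.8, 51.0 and 49.5 in that order, and those of neuroblasts and immature neurons to 871, 726, 785 and 703. Thus the young inner array was the highest in these sums as it was in that of the striatal genes. Several other lists shared this, among them astrocytes, with 192 beside 130, 158 and 147, and mossy cells, with 28.4 beside 15.3, 9.47 and 7.92. For microglia (256 beside 298, 282 and 302) and mature granule neurons (246 beside 288, 311 and 358) it was the lowest. A linear sum is carried by its bright members, and dim ones hardly count in it. On the neuroblast list Dpysl5 had log2 signals of 7.79 in young inner and 7.78 in senile inner tissue, beside 2.90 and -0.64 for Dcx. That sum therefore says little about the dimmer neuroblast genes. The part of the striatal-type signal in the neurogenesis differences was not tested.

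**Figure D3:**
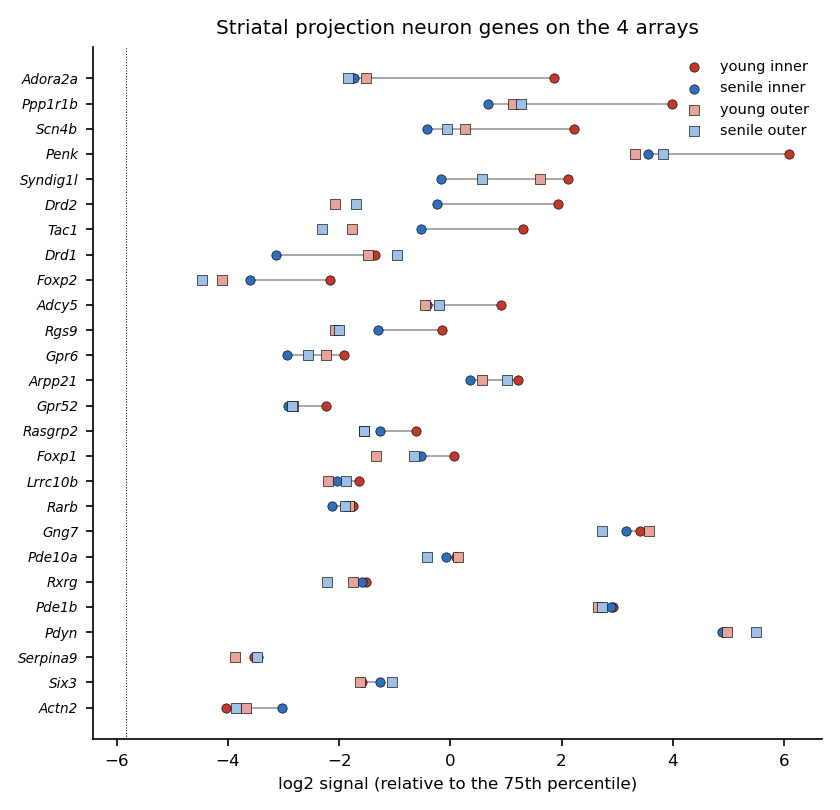
Log2 signal relative to the 75th percentile (horizontal axis) of the 26 striatal projection neuron genes well above background on both inner arrays, on each of the 4 arrays, ordered by the inner age difference. Each point is 1 array, the dotted line marks the lowest signal above background on the senile inner array, and for Ppp1r1b, Penk and Adora2a the young inner array lies above 3 arrays that lie close together.

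Of 36 interneuron genes, 9 were at least 2-fold lower, 2 were higher and 25 were under 2-fold, with a median of -0.40. Their summed signal was 387 on the young inner and 408 on the senile inner array, so the sum and the median differ in direction. The sum leans on its brightest gene, Lhx6, with log2 signals of 7.80 in young inner and 8.13 in senile inner tissue. Without Tac1, which the striatal list also holds, 8 of 35 were lower. The genes that make and load GABA were under 2-fold, Gad2 with -0.75, Slc32a1 with -0.61 and Gad1 with -0.12. The peptides Sst and Npy differed by -0.43 and 0.13 and the calcium buffer Pvalb by 0.23. The lower genes included developmental transcription factors, Dlx1, Dlx5, Dlx6 and Sox6, with differences between -2.28 and -1.36, although a second Dlx1 probe gave 0.36. Sp9, another such factor, was not well above background in senile inner tissue and was at least 5.25-fold lower. Htr3a, a serotonin receptor subunit of one interneuron class, was higher by 2.03, with -2.55 in young inner and -0.52 in senile inner tissue.

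Mossy cell and hilus genes had a median of -0.68, with 6 of 16 lower, 1 higher and 5 of 15 lower without Drd2, which is also a striatal gene. Slc17a6, a vesicular glutamate transporter, was lower by 1.43 inside and 3.69 outside, and Gal, the peptide galanin, by 1.27 inside. Cyp26b1, which degrades retinoic acid, differed by -0.52. Of 45 genes of neuropeptides and their receptors, 10 were lower and 0 higher, and without the striatal genes 8 of 42 were lower. Sstr2, a somatostatin receptor, was lower by 2.52 inside and 2.32 outside. Crhr1, the receptor of corticotropin-releasing hormone, was lower by 2.09 inside, with an outer difference of 0.13.

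Signals that act on the stem cell niche were mixed. Among Notch genes, 3 of 6 targets were at least 2-fold lower, namely Hes5, Nrarp and Heyl, and 0 were higher. Nrarp, a feedback inhibitor of the pathway, was lower by 2.24 inside and 1.24 outside. Of its ligands, Dll3 was lower by 3.44, and by 1.61 with normexp correction. Dll1 was higher by 1.03, and by 0.10 with that correction. Jag2, well above background in senile inner tissue only of the inner pair, was at least 6.55-fold higher inside and 10.4-fold lower outside. With normexp correction its inner difference was 0.04. Of 59 Wnt genes, 11 were lower and 5 higher. Wnt5b, a ligand, had -3.31 in young inner, -0.06 in senile inner, -3.92 in young outer and -1.96 in senile outer tissue, so it was higher with age by 9.49-fold inside and 3.88-fold outside.

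Wnt8b, another ligand, was lower by 2.98, with a second probe at 0.02, and 5 of 16 secreted or intracellular Wnt inhibitors were lower, with 0 of them 2-fold lower under normexp correction. BMP signalling is known to keep stem cells quiescent. Of 10 measured genes listed as BMP ligands or related factors, 3 were higher, namely Bmp7, Bmp6 and Gdf11, and 2 were lower. Bmp7 was higher by 2.68 and Bmp6 by 1.53, and by 0.84 and 0.37 with normexp correction. Noggin (Nog), a BMP inhibitor of the niche, was higher by 1.82, and by 0.50 with that correction. Angpt1, a vessel growth factor, was lower by 2.42 inside and 3.24 outside.

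Genes of axon guidance gave 8 lower and 0 higher of 30 semaphorins and plexins, and 2 lower and 2 higher of 20 ephrins and their receptors. Of 31 immediate early genes, which neuronal activity induces, 4 were higher and 0 lower, beside 7 higher and 0 lower in the outer pair. Egr3 was higher by 1.41 inside and differed by -0.44 outside. Atf3 and Ccn1, 2 of the 4, had differences of -0.02 and -0.20 with normexp correction.

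Of 38 oligodendrocyte genes, 4 were lower and 3 higher, while the outer pair had 10 lower and 2 higher. Mog, a myelin protein, was lower by 1.91 inside and 2.92 outside. Of 31 microglia genes, 4 were lower and 1 higher, with Trem2, a lipid receptor of microglia, lower by 1.18. Complement and MHC genes gave 3 lower and 1 higher of 29, interferon response genes 2 lower and 0 higher of 23, and senescence and inflammatory secretion genes 3 lower and 0 higher of 26. Their medians lay at 0.07, -0.07 and -0.12. Among reactive astrocyte genes 6 of 19 were lower, led by Timp1, Emp1 and Ptx3, and 1 was higher.

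Genes of the machinery shared by all cells differed least among the groups described. Of 67 respiratory chain genes 0 reached 2-fold, with differences from -0.33 to 0.64, and 0 of 30 proteasome and ubiquitin genes, with -0.36 to 0.32. Few bright genes of any kind reached 2-fold, with 0.77% higher and 1.46% lower in the brightest tertile of all genes. Of 41 glutamate receptor and postsynaptic density genes, 1 was lower, Grin3a, a juvenile NMDA receptor subunit, with -1.95. It was lower by 1.06 with normexp correction, and a second probe gave -0.31. The plot of list medians sets each list beside its outer value.

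**Figure D4:**
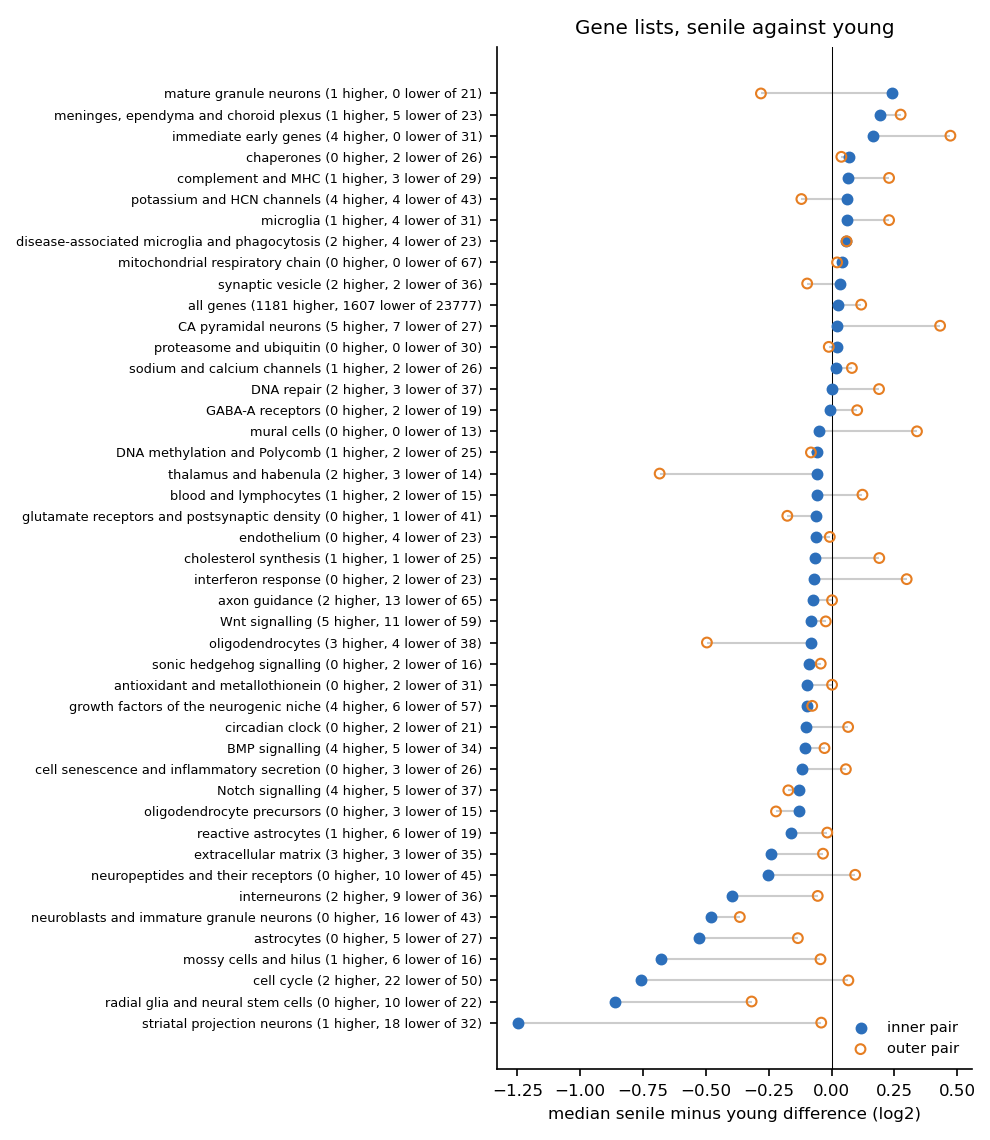
Median senile minus young log2 difference (horizontal axis) of the measured genes of each of 44 lists and of all genes, in the inner pair (filled points) and the outer pair (open points), with the counts of genes at least 2-fold higher or lower in the inner pair beside each name. Striatal, stem cell and cell cycle genes have the lowest inner medians, -1.25, -0.86 and -0.76, beside outer medians of -0.04, -0.32 and 0.07.

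Outside the lists, the lower genes named by size included bright transcripts that were lower in both layers. Fnbp1l, an organiser of membrane-bound actin, had 2.03 in young inner, -1.23 in senile inner, 0.06 in young outer and -1.94 in senile outer tissue, and was 9.58-fold and 4.01-fold lower. Camk4, a calcium-dependent kinase of the nucleus, was 6.26-fold lower inside and 3.54-fold outside, and its other probes gave -2.64 and -2.65 inside. Hmgb2, a chromatin protein rich in dividing and immature cells, was 6.88-fold lower inside and 1.89-fold outside. Rasgef1b, an exchange factor of Rap GTPases, was 7.58-fold and 3.09-fold lower. Shb, an adaptor of tyrosine kinase signalling, was 9.56-fold lower inside and 2.94-fold outside by the probe used, but another probe gave -0.07 inside.

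Other lower genes were under 2-fold in the outer pair. Tpbg, a membrane glycoprotein, was 29.6-fold lower inside and 1.44-fold outside. Tfap2d, a transcription factor of the AP-2 family, was 35.3-fold lower, with -0.38 in young inner tissue and between -5.62 and -5.13 elsewhere. Dach1, a transcriptional cofactor, was 11.8-fold lower, and its second probe gave -2.60. Flrt1, a cell adhesion gene, was 6.29-fold lower, but a second probe gave 0.49, so its direction is not settled. The striatal gene Scn4b, a sodium channel subunit, was 6.21-fold lower.

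Of the 17 genes named as lower and well above background on both inner arrays, 8 were also 2-fold lower in the outer pair, 9 were under 2-fold and 0 were opposite. Of all 23 genes named as lower, 7 belong to the striatal list and 4 to a neurogenesis list. Tshz2, Upb1 and Slc27a6 were well above background in young inner tissue only of the inner pair, at least 34.9-fold, 26.9-fold and 24.6-fold lower, as was the striatal gene Slc35d3, at least 25.1-fold lower.

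Among the higher genes, a few were higher in both layers. Tmem255a, a membrane protein gene, had 0.81 in young inner, 2.52 in senile inner, 0.46 in young outer and 2.15 in senile outer tissue. Both senile arrays lay above both young ones, by 3.26-fold and 3.24-fold, and a second probe gave 1.72 inside. Tshz3, a zinc finger transcription factor, was higher by 3.42-fold inside and 3.25-fold outside, and Rin2, a regulator of Rab5, by 2.63-fold and 2.16-fold. Rph3al, a Rab effector of secretion, was higher by 2.49 inside and 3.33 outside on the log2 scale by the probe used, while another probe gave -0.08 inside. For Ncbp3, a cap-binding protein gene with 2.91-fold, other probes gave -0.09 and 0.49.

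Efna1, an ephrin ligand, had -5.07 in young inner, 0.53 in senile inner, 0.39 in young outer and -1.09 in senile outer tissue. The young inner array alone stood low, which gave a 48.3-fold difference inside. Ddrgk1, an adaptor of protein modification by UFM1, was 4.62-fold higher inside and 1.66-fold lower outside. Radil, an effector of Rap, was 4.73-fold higher inside by the probe used, and another probe gave -0.40. Tafa1, a secreted protein, was 2.84-fold, Efcab10 2.78-fold and Saysd1 2.67-fold higher inside. Vpreb1, Iqcm, Frrs1 and Apold1 were dim in young inner tissue and higher by 4.46, 4.11, 4.94 and 2.56 on the log2 scale, with a second Apold1 probe at -0.21. Gm3893, with 7.56-fold, and Gm1987 have close copies and remain uncertain.

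Of the 18 genes named as higher and well above background on both inner arrays, 8 were also 2-fold higher in the outer pair, 7 were under 2-fold and 3 were opposite. Above background in senile inner tissue only of the inner pair were Olfr449, Defa-ps13, Lmntd1, Gm1987, C530044C16Rik and Tex21, at least 16.4-fold to 21.1-fold higher. Olfr449 and Defa-ps13 belong to families of similar sequence. With normexp correction 1 of these 6 was 2-fold higher, against 6 of the 6 lower genes named in the same way. These counts were not centred, and that correction put the median of all genes at -0.26, so the 2 directions are not on equal terms.

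Of 22897 genes measured in both pairs, 279 were 2-fold lower in both, which is 19.7% of those lower inside and 26.0% of those lower outside. In the other direction 219 were higher in both, 21.1% and 17.0%. Another 195 genes were lower inside and higher outside, and 108 were higher inside and lower outside. Among genes measured in both, those lower inside had a median outer difference of -0.09 and those higher inside one of 0.28, beside 0.11 for all genes.

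Within genes of several probes, agreement was partial. For the genes at least 2-fold lower and well above background on both inner arrays, 301 other probes were well above background, of which 202 were also lower, 95 of them 2-fold, and 20 were 2-fold higher. For the genes 2-fold higher, 181 other probes gave 102 that were also higher, 35 of them 2-fold, and 15 that were 2-fold lower. Of the named genes, 5 of the 7 lower ones with another probe had all such probes 2-fold lower, and 2 of the 6 higher ones had all 2-fold higher.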

How the data were processed

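RNA from laser-captured cells was amplified, labelled with Cy3 and hybridised to 4 one-colour Agilent arrays, per the labels' protocols. The authors deposited spot intensity values from Agilent Feature Extraction, version 10.7.3.1 per the file headers and 9.5.3 per the submitters' processing notes. The deposited table of log2 values was not used by gene, because its probe names did not match the scanner values (correlations of 0.0036 to 0.011, column medians of -0.0133 to 0.0803), and its scale and direction stayed unknown; each of its probes is centred on the median of the 4 arrays.

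Non-control spots without outlier flags were scaled as log2 processed signal minus the 75th percentile of the array. Spots of a probe were averaged, and the brightest probe stood for a gene. A signal not well above background was raised to the lowest signal that was, so such folds are bounds ("at least"). Probe accessions were named through a RefSeq table of GRCm38.p6, for 26855 of 39429 probes, 3751 more matched by symbol and 8823 kept the name in the file. Alternatives were normexp (offset 50; limma 3.58.1 in R 4.3.3), median or quantile scaling, other filters, no floor, the mean of probes, outlier spots kept and a 4-fold limit. Normexp centred on the median of all genes, and lists without striatal genes, were added after the data were seen. Python 3.11.15, pandas 2.3.3 and numpy 2.4.6 did the rest, checked on simulated data.

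The members and the 44 gene lists were chosen with earlier results of these data known. Named were the 15 genes per direction with the largest difference, taken as the smaller of both background settings. Added were the 8 per direction with the largest difference in the brightest tertile, up to 6 per direction above background on 1 inner array, up to 4 members per list, and list members whose role is explained. Members of families with near-identical copies are uncertain. Some genes are not reported here.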

Additional observations from a re-analysis of the deposited data

Results flagged for a closer look

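Efna1, Frrs1 and Apold1 were higher with age inside and lower with age outside, each by more than 2-fold. Efna1 differed by 5.59 inside and -1.48 outside on the log2 scale, a gap of 7.07. For Frrs1 the values were 4.94 and -1.85, a gap of 6.80, and for Apold1 2.56 and -1.78, a gap of 4.35. With 1 array per group these differences between layers were not tested, and a second Apold1 probe gave -0.21 inside.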

How the results depend on the processing

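With 1 array of pooled mice per group, no value has an error between animals, and the spread of the differences was wider among dim genes. No paired analysis was possible because each group has 1 array and the labels give no replicate numbers. Median and quantile scaling, no filter, no floor, the mean of probes, outlier spots kept, and genes above background on both inner arrays kept the counts over all genes within 1.5 times. All 47 genes named by size kept their direction under each alternative that gave a value, and 42 kept 2-fold with normexp. Genes named for the largest difference were ranked by the smaller of both background settings, one of which was normexp. For those genes, direction and 2-fold size with normexp were fixed by the choice and are no separate check.

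The counts of higher and lower genes were 95 and 674 with normexp, 357 and 267 with normexp centred on the median, and 266 and 419 at 4-fold. With normexp, centred normexp and 4-fold, lower stem cell genes numbered 6, 3 and 1, and lower cell cycle genes 11, 9 and 12. At 4-fold 9 neuroblast genes and 11 striatal genes were lower, and with centred normexp 11 striatal genes. Medians with normexp were -0.70 for stem cell, -0.36 for neuroblast and -0.96 for striatal genes. With centring they were -0.44 for stem cell, -0.47 for cell cycle, -0.10 for neuroblast and -0.70 for striatal genes. The cell cycle median was -0.58 without a filter, -0.91 without a floor, -0.64 with the mean of probes and -0.86 with outlier spots. The striatal median was -0.77 for genes above background on both inner arrays, -1.09 without a filter and -1.53 with the mean of probes.

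Differences that turned sign with normexp included those of Alas2 (-0.085), Angpt2 (-0.37, centred -0.11), Atf3 (-0.018), Ccn1 (-0.20), Col10a1 (-0.10), Erbb3 (-0.013), Itgax (-0.25), Iyd (-0.48, centred -0.22), Slc2a5 (-0.13) and Zic4 (-0.15). With normexp the median of all genes lay at -0.26. After centring on that median, 2 of these genes still had the turned sign, Angpt2 and Iyd. Other list members also turned sign with normexp, such as Insm1, from 0.33 to -0.24. Sox17 turned to 0.18 with the mean of probes. The cause was not tested.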
